A study of Homo sapiens with 16 samples.

Results

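Untreated cells of 4 non-small cell lung cancer lines were compared between lines that the study calls responsive and lines that it calls non-responsive to a drug combination. The responsive lines were H460, a large cell carcinoma line, and H1703. The non-responsive lines were HCC827, a lung adenocarcinoma line with an activating EGFR deletion, and H441, also a lung adenocarcinoma line. The combination paired 5 µM MYCi975, an agent that blocks MYC, a growth-promoting transcription factor, with 25 µM TMP195, an inhibitor of class IIa histone deacetylases. All 8 libraries described here received the DMSO vehicle for 48 hours from 1 day after plating, in RPMI medium with 10% serum, and are 8 of the 16 libraries in all. They were chosen by label alone, as the 4 vehicle libraries of the responsive lines and the 4 of the non-responsive lines, 2 per line. The question is which genes already lay apart between the line classes before any drug was given. Each class holds 2 lines, each grown from 1 tumour, so any difference between the classes is also a difference between these particular lines.

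Carcinoma cells differ in how far they keep the program of the epithelium they came from. Epithelial cells hold together through E-cadherin (CDH1), tight junctions and desmosomes, build their filaments from keratins, and keep this state with transcription factors of the GRHL, OVOL and ELF families and the splicing regulators ESRP1 and ESRP2. Mesenchymal cells use vimentin filaments and repressors such as ZEB1, which binds E-box sequences in promoters of epithelial genes. MYC drives ribosome production and growth with its partner MAX, while the MXD proteins and MNT compete for MAX. The class IIa enzymes HDAC4, HDAC5, HDAC7 and HDAC9 bind MEF2 transcription factors and hold their targets down. NRF2 switches on antioxidant and detoxifying enzymes, and many lung cancers carry lesions that leave it active.

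The libraries held 8493271 to 13604150 reads in the listed genes, with 9914760 to 13604150 in the vehicle libraries of the responsive lines and 9115712 to 10859162 in those of the non-responsive lines. The mitochondrial ribosomal RNA MT-RNR2 took 10.4% to 20.96% of reads per vehicle library. The 2 libraries of a line correlated at 0.978 to 0.985 across 23968 genes, and nothing in the labels says that they came from separate cultures, so p-values measure the spread between these libraries, which may be technical. Line means correlated at 0.863 between H460 and H1703, at 0.886 between HCC827 and H441 and at 0.806 to 0.844 between lines of different classes. Genes are not independent replicates, and these values only describe the libraries. The 7 lung epithelial markers (EPCAM, KRT7, KRT8, KRT18, KRT19, CDH1 and NKX2-1) summed to 263 to 28700 normalised reads in the responsive lines, against 53676 to 92133 in the non-responsive lines. Normalised reads are recovered read counts divided by a size factor per library. CDH1 and EPCAM did not exceed 9.11 normalised reads in any responsive library, so these defining markers were near 0 there. Of 8 leukocyte markers 3 were in the table, with sums of 2.93 to 61.4 in the responsive lines and 10.1 to 24.3 in the non-responsive lines. Endothelial markers summed to 7.08 to 9.81 in the responsive lines and 6.06 to 28.2 in the non-responsive lines, and fibroblast markers to 13.6 to 227 in the responsive lines and 90.9 to 255 in the non-responsive lines. In bulk libraries, fewer cells of a type and less RNA per cell cannot be told apart.

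Of 23968 tested genes, 4930 (20.6%) had both responsive line means above both non-responsive line means, and 5227 (21.8%) had both below. A gene was called clearly separated when all 4 pairs of a responsive and a non-responsive line differed in one direction with a limma adjusted p of at most 0.05. This held for 1757 genes that were higher (7.33% of tested genes) and 1960 that were lower (8.18%) in the responsive lines. Such genes were picked for lying apart, so a lack of overlap stated for them below largely follows from that choice. Over all tested genes, all 4 responsive libraries lay above all 4 others for 11.9% and below them for 13.1%. "Higher" and "lower" below mean clearly separated in this sense, and the class difference is the mean of the responsive lines minus that of the non-responsive lines on the deposited log2 scale, with its standard error (SE). The gap is the distance between the nearest line means of the classes. The class difference had a median of 0.01 over all tested genes, 1.37 over the higher genes and -2.16 over the lower genes. The lower genes lay further apart, with a median gap of -1.27 against 0.85 for the higher genes, and 324 lower and 205 higher genes had a gap of at least 3. Protein-coding genes made up 86.2% of the higher and 77.7% of the lower genes, against 61.1% of tested genes, and 150 higher and 288 lower genes were antisense or long intergenic RNAs. The looser test of the class means called 6895 genes higher (28.8%) and 6607 lower (27.6%). Both calls rest on the spread between the 2 libraries of a line. With the 4 line means as the points, limma left 2 residual degrees of freedom and called 0 genes (0.0%, smallest adjusted p 0.0709), with limma voom on the recovered reads also at 0 and with 2326 genes (9.7%) at an unadjusted p under 0.05. An exact permutation of 2 lines against 2 cannot give a two-sided p below 0.333. Among higher genes the limma adjusted p nearest the threshold was 0.04996 inside it and 0.05003 outside it, and among lower genes 0.0499 inside and 0.0502 outside.

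The widest gaps above the non-responsive lines belonged to genes with almost no reads in HCC827 and H441. UCHL1, a neuronal deubiquitinase, had 3807 and 3747 normalised reads in H460 and 2369 and 2411 in H1703, against 0 and 2.03 in HCC827 and 0 and 1.09 in H441. With 3 reads over the 4 non-responsive libraries, the ratio of the responsive to the non-responsive lines was 3713, with a 95% counting interval of 1270.1 to 18005. ADD2, a subunit of the membrane skeleton protein adducin, had 1101 and 1301 in H460 and 1862 and 1753 in H1703, against 0 in all 4 non-responsive libraries, which made it at least 1838-fold higher against a floor of 3 reads over the class. The responsive libraries were high and the non-responsive ones near or at 0 for both genes, with no overlap. PDE10A, a phosphodiesterase of cyclic nucleotides, had 3139 and 3239.99 in H460 and 922 and 989 in H1703 and 0 in the non-responsive libraries (at least 2475-fold higher). MAGEA1, a cancer-testis antigen on chromosome X that shares sequence with related MAGEA genes, had 728 to 847 in the responsive libraries and 0 in the others (at least 949.6-fold higher). COL5A2, a chain of fibrillar collagen V, had 13097 and 12282 in H460 and 9733 and 8954 in H1703, against 16.97 and 12.2 in HCC827 and 5.52 and 9.77 in H441, a class difference of 9.702 ± 0.13 with a highest limma adjusted p of 1.44e-18 over the line pairs. ALDH1A1, a retinaldehyde dehydrogenase, differed widely within the responsive class, at 1276 and 750.4 in H460 and 17582 and 15854 in H1703, against 0 to 3.26 in the non-responsive libraries. The iron reductase gene CYBRD1, the kinase gene ALPK2, the teneurin gene TENM3, OLFM1, the histone variant gene MACROH2A2, PALD1, the drug and cation exporter gene SLC47A1, PGAP4 and the zinc finger gene ZNF711 complete the 15 widest, and all but ALPK2 of these 9 had 0 reads in the non-responsive lines. Among all higher genes, 198 had 0 reads and 319 had 0 to 3 reads over the 4 non-responsive libraries.

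The widest gaps in the other direction included many genes of epithelial surfaces. CDH3, the P-cadherin gene at chr16:68636189-68722616, had a single read in a responsive library, at 0 and 0 in H460 and 0 and 0.701 in H1703, against 1823 and 1976 in HCC827 and 3210.4 and 3395 in H441. Its ratio of non-responsive to responsive lines was 12380.03, with a counting interval of 2221 to 489036. The responsive libraries were at or next to 0 for CDH3 and did not overlap with the others. TNC, the matrix glycoprotein tenascin C, had 0 in the responsive libraries, against 3699.8 and 4043 in HCC827 and 1191 and 1399.7 in H441 (at least 4093-fold lower). ST14, a membrane protease of epithelia also known as matriptase, had 0 against 622 and 691 in HCC827 and 2229.7 and 2133 in H441 (at least 2252-fold lower). LAD1, a basement membrane zone protein, was at least 916-fold lower and GRAMD2B at least 1003-fold lower, again with 0 in every responsive library. The long RNAs UCA1, LINC02474 and MAL2-AS1 had 0 responsive reads as well, and KRT7-AS had 0.974 to 5.87 in the responsive and 1987 to 2295 in the non-responsive libraries. MAL2-AS1 and KRT7-AS overlap MAL2 and KRT7, and no source used here states whether counting took strand into account, so reads of these pairs cannot be told apart. Among all lower genes, 239 had 0 reads and 383 had 0 to 3 reads over the 4 responsive libraries.

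**Figure D1:**
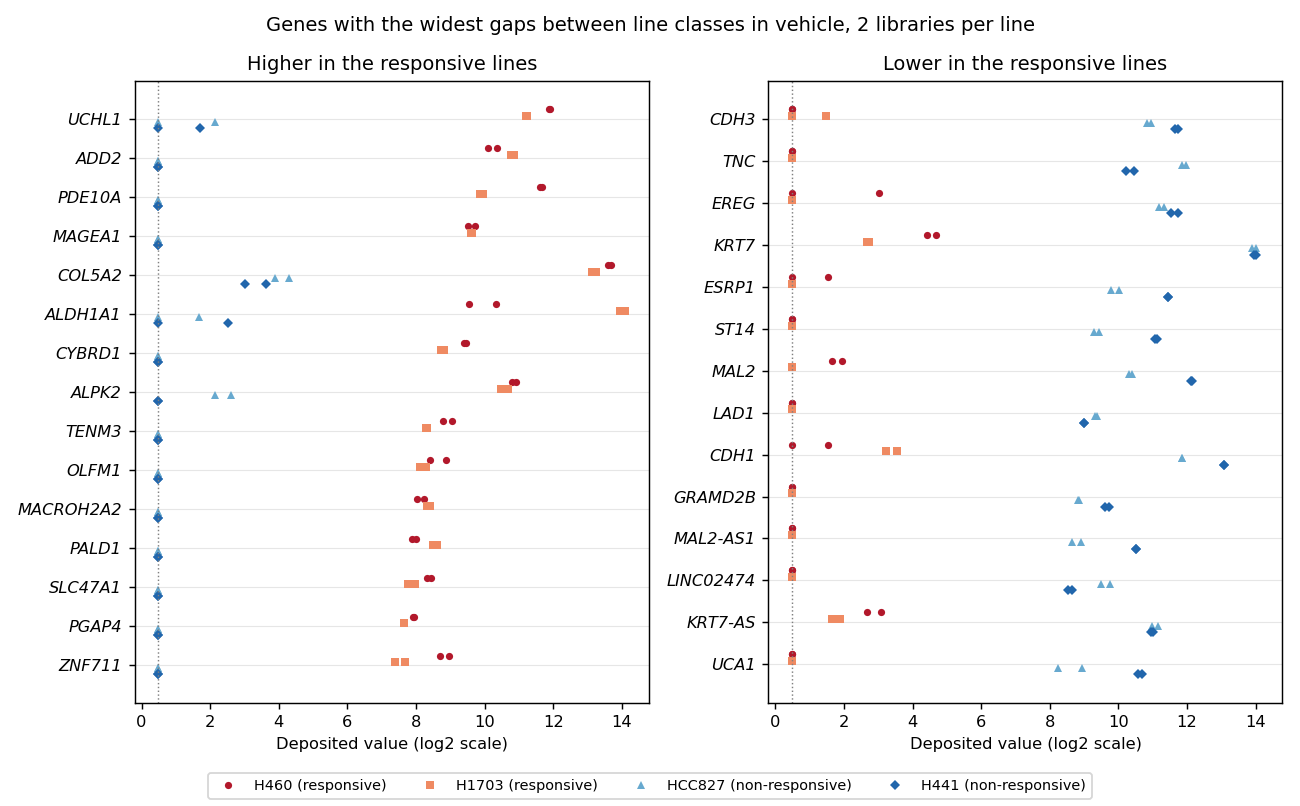
Deposited value (log2 scale) of the named genes with the widest gap in each direction, 1 point per vehicle library and 2 per line, with responsive lines in red and orange and non-responsive lines in blue. The dotted line is the value of 0 reads (0.480538); responsive and non-responsive points do not overlap for any gene shown, and most of the genes sit on or near that line in one class.

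The epithelial program was low in both responsive lines. Of 30 tested epithelial identity genes, 28 were lower (93.3%, beside 8.18% of all tested genes) and none was higher. The median class difference was -5.63 (-6.59 with genes at 0 reads set to their bound), against 0.01 over all tested genes. CDH1, the E-cadherin gene at chr16:68737225-68835548, had 0 and 0.787 normalised reads in H460 and 6.82 and 9.11 in H1703, against 3679 and 3711 in HCC827 and 8642 and 8697 in H441. Its class difference was -10.27 ± 0.16, with a highest limma adjusted p of 8.55e-17. EPCAM, the epithelial cell adhesion molecule, had 8.804 and 5.51 in H460 and 1.95 and 0 in H1703, against 2158 and 2224 in HCC827 and 4330.2 and 4552 in H441, a class difference of -9.33 ± 0.303. All 4 responsive libraries lay far below all 4 non-responsive ones for both genes.

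The regulators of this program followed the same order. GRHL2, a transcription factor that activates epithelial junction genes, had 0 reads in the responsive lines, against 230.3 and 299.7 in HCC827 and 1237 and 1294 in H441 (at least 1217-fold lower). ELF3, an epithelial ETS factor, had 4.89 and 1.57 in H460 and 0.974 and 0 in H1703, against 663 and 663 in HCC827 and 1811 and 1897 in H441 (-8.38 ± 0.24). The splicing regulator ESRP1 had 1 read over the responsive libraries, against 882 and 1034 in HCC827 and 2811 and 2814 in H441. Its relative ESRP2 kept 7.01 to 29.9 normalised reads in the responsive lines, against 615 to 719 in the non-responsive lines (-5.34 ± 0.17). OVOL1 and OVOL2, repressors of the mesenchymal state, had at most 4.204 in any responsive library, against 32.7 to 293 in the non-responsive libraries. KLF5 was the regulator with the narrowest difference among these, at 210.3 and 297 in H460 and 131 and 164 in H1703, against 797 and 777 in HCC827 and 1384 and 1363 in H441 (-2.42 ± 0.101). The members that did not pass were MYO5B, a motor of apical recycling, with 499.9 and 736 in H460 and 21.4 and 30.8 in H1703, against 229 and 265 in HCC827 and 1504 and 1488 in H441, and the polarity scaffold PATJ. For both, one responsive line lay above one non-responsive line.

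Promoter windows are shown because ZEB1 and related repressors of epithelial genes bind the E-box CACCTG. Read from the opposite strand the same site is spelled CAGGTG. The window is the 250 bases before the gene start in RefSeq on GRCh38.p14, and 6143 of 35116 windows in that table (17.5%) held at least 1 match on either strand. Of the 28 lower epithelial genes, 13 had a window, and 8 of their 16 windows (50%) held a match. The difference from 17.5% was not tested, and promoters of other epithelial genes or of like base content were not compared. Shown here 5′ to 3′ on the gene's strand, with each match in capitals, are the window with the most matches, the next one by matches, and one with a single match.
CRB3, chr19:6464021-6464270, plus strand: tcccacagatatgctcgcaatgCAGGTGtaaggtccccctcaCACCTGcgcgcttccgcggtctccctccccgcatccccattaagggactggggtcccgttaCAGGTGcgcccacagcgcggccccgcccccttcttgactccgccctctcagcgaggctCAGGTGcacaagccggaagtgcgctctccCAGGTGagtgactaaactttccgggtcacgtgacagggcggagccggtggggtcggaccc
AP1M2, chr19:10587313-10587562, minus strand: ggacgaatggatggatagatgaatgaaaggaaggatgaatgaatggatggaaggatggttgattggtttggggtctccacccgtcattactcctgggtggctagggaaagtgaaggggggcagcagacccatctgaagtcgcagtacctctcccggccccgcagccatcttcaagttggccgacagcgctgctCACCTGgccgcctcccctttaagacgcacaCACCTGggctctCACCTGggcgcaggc
RAB25, chr1:156060910-156061159, plus strand: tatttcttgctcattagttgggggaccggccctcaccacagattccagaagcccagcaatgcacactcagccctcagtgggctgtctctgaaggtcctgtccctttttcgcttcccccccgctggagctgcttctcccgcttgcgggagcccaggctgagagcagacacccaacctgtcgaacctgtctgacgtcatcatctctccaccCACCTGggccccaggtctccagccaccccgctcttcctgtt
CRB3, a polarity protein of the apical membrane, held 5 matches, a number reached by 0.074% of all windows. It had 0 reads in the responsive lines, against 71.5 and 55.7 normalised reads in HCC827 and 87.2 and 94.4 in H441 (at least 122-fold lower). AP1M2, an adaptor subunit for sorting to the basolateral membrane, held 3 matches, as 0.464% of windows did or exceeded. It had 80.2 and 69.2 in H460 and 0 and 0.701 in H1703, against 179 and 202 in HCC827 and 309 and 282 in H441 (-4.28 ± 0.19, highest limma adjusted p 0.000427), so H460 lay much nearer to the non-responsive lines than H1703 did. RAB25, a GTPase of apical recycling, held 1 match and had 0 reads in the responsive lines, against 2.42 and 11.1 in HCC827 and 147 and 189 in H441 (at least 139-fold lower). The CRB3 and AP1M2 windows were picked for their number of matches, so the rarity of that number reflects the choice. The matches describe the letters of these windows and no binding was measured. ZEB1 itself was not clearly separated, with 967 and 889.6 in H460 and 1318 and 1223 in H1703, against 1087 and 990.4 in HCC827 and 116 and 125 in H441. HCC827 lay between H460 and H1703 in ZEB1, and H441 stood alone as the low line.

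Junction genes and keratins were lower in part. Of 22 tested junction and desmosome genes, 11 were lower and CLDN1 was higher, with a list median of -3.17. F11R, the junctional adhesion molecule JAM-A, had 65.5 and 84.95 normalised reads in H460 and 5.84 and 4.904 in H1703, against 453 and 493 in HCC827 and 1689.7 and 1647 in H441 (-5.17 ± 0.101). CLDN7, a claudin of the tight junction strand, had 4.904 to 23.6 in the responsive libraries, against 163 to 223 in the non-responsive ones (-3.83 ± 0.17). CLDN1, another claudin, ran the other way, with 336 and 368 in H460 and 609 and 671 in H1703, against 113 and 100.3 in HCC827 and 110.4 and 153 in H441 (1.99 ± 0.13). Of 11 tested keratins, 7 were lower (63.6%) and none higher, with a median of -3.02. KRT7, a keratin of simple and glandular epithelia, had 18.6 and 22.8 in H460 and 3.896 and 4.204 in H1703, against 16612 and 15370.1 in HCC827 and 15968 and 16402 in H441 (-10.35 ± 0.12). KRT18, the partner of KRT8 in simple epithelia, showed that the responsive lines differed between themselves, at 3722 and 3776 in H460 and 195 and 179 in H1703, against 5189 and 4906 in HCC827 and 9062 and 9529 in H441 (-3.02 ± 0.05). KRT19 split the responsive class, with 6889.6 and 7105 in H460 and 0.974 and 0 in H1703, and was not clearly separated from HCC827 (6343 and 6663) and H441 (16444 and 15996). KRT8 and KRT18 have processed pseudogenes with near-identical sequence, so their counts are uncertain. With median centring KRT8 was not called (limma adjusted p 0.467), nor without the trend and robust settings (0.137). The call of KRT8 was lost without H460 vehicle replicate 1 or 2 (limma adjusted p 0.118 and 0.0512) or HCC827 vehicle replicate 1 (0.201).

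**Figure D2:**
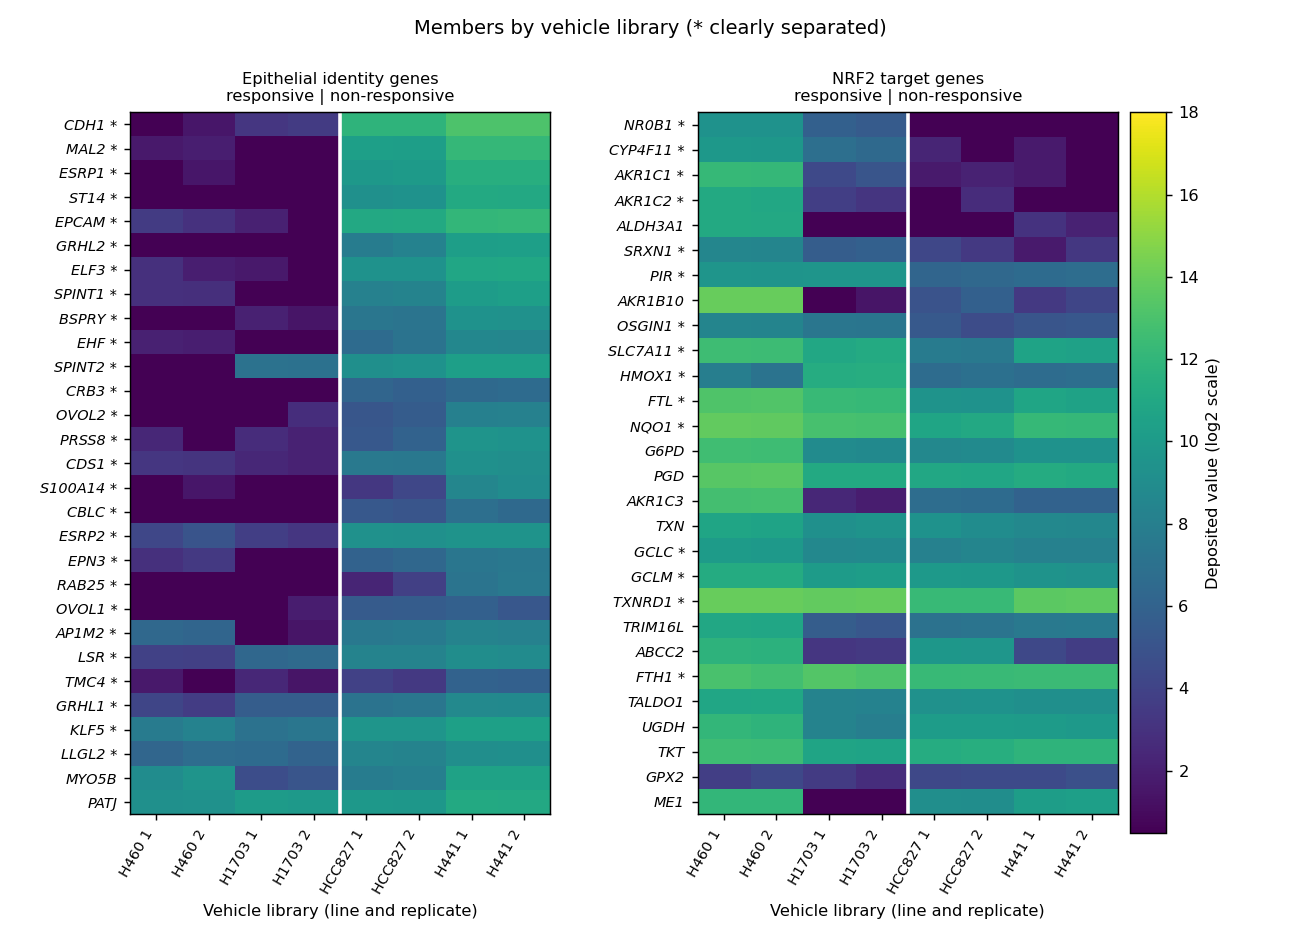
Deposited value (log2 scale, colour) of the epithelial identity genes (1 of the 30 is not shown) and of the 28 tested NRF2 target genes in each vehicle library, with the 4 responsive libraries left and the 4 non-responsive libraries right of the white line, and clearly separated genes starred. The epithelial genes are dark in both responsive lines except MYO5B, PATJ, KLF5 and a few others, while many NRF2 targets are bright in H460 and some of them are dark in H1703.

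Mesenchymal genes did not mirror the epithelial ones as a group. Of 27 tested members, 4 were higher (VIM, FBN1, COL3A1 and COL5A2) and NT5E was lower, with a list median of 0.83. These were 14.8% higher and 3.70% lower, beside 7.33% and 8.18% of all tested genes. VIM, the vimentin gene, had 7046 and 8061 normalised reads in H460 and 8872 and 10015 in H1703, against 3889 and 3699 in HCC827 and 2.21 and 3.26 in H441 (5.92 ± 0.22, highest limma adjusted p 0.0235). Nearly all of that difference lay between H441 and the other lines, and the call was lost without H460 vehicle replicate 2 (0.0894), HCC827 vehicle replicate 1 (0.0557) or HCC827 vehicle replicate 2 (0.0737). FBN1, the microfibril protein fibrillin-1, had 203 and 163 in H460 and 320.4 and 338 in H1703, against 103 and 85.1 in HCC827 and 8.83 and 17.4 in H441 (2.696 ± 0.15). NT5E, the ecto-nucleotidase CD73, had 126 to 205 in the responsive libraries, against 2959 and 3458 in HCC827 and 3181 and 3158 in H441 (-4.37 ± 0.096). Its groups lay far apart, opposite to the direction of the 4 other separated members.

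Of 18 tested alveolar and airway genes, 7 were lower (38.9%, beside 8.18% of all tested genes) and none higher. The list median was -3.00 (-4.17 with bounds). The uncalled genes ABCA3, LAMP3 and CEBPA had differences above 0, of 0.28, 1.02 and 1.62. NKX2-1, the lineage factor of the distal lung and thyroid at chr14, had 0 and 0 normalised reads in H460 and 5.84 and 1.401 in H1703, against 1022 and 951 in HCC827 and 1735 and 1759 in H441 (-8.89 ± 0.32). NAPSA, an aspartic protease that processes surfactant protein B, had 0 to 4.87 in the responsive libraries, against 60.6 and 56.7 in HCC827 and 957 and 981 in H441 (-5.84 ± 0.34). The surfactant-associated gene SFTA3 had 1 read over the responsive libraries, against 71.5 and 84.1 in HCC827 and 409 and 398 in H441. Of 23 tested mucins and mucosal products, 12 were lower (52.2%) and none higher, with a median of -3.74 (-4.43 with bounds). TSPAN8 was uncalled at 1.73. MUC16, the membrane mucin CA125, had 1 read over the responsive libraries, against 4067 and 4587 in HCC827 and 438 and 361 in H441. CEACAM6, an adhesion molecule of mucosal epithelia, had 0 in the responsive libraries, against 268 and 389 in HCC827 and 1179 and 1087 in H441 (at least 1163-fold lower). MUC4 had 0 against 20.6 and 39.5 in HCC827 and 769 and 799 in H441, so the non-responsive lines differed widely between themselves. Requiring a mean 3 above the lowest value reduced the 12 lower mucosal genes to 7. Of 9 tested squamous genes, PAX9 alone was lower (11.1%, beside 8.18% of all tested genes) and none was higher.

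Among the direct targets of the combination, HDAC4 was clearly separated, and HDAC7 lay apart without passing the test. MYC had 1548 and 1409.6 normalised reads in H460 and 663 and 665 in H1703, against 2092 and 2068 in HCC827 and 953 and 994 in H441, and H460 lay above H441, so the classes overlapped. MAX, its partner, had 803 and 708 in H460 and 605 and 502 in H1703, against 1005 and 992 in HCC827 and 748 and 706 in H441, and the classes overlapped as well. Among the class IIa histone deacetylases, HDAC4 was higher, with 997 and 944 in H460 and 361 and 415 in H1703, against 167 and 182 in HCC827 and 117 and 123 in H441 (2.06 ± 0.09, highest limma adjusted p 1.19e-07). Its lowest responsive library was above its highest non-responsive one. HDAC5 had 92.9 and 89.7 in H460 and 400.3 and 376 in H1703, against 298 and 317 in HCC827 and 209 and 207 in H441. HDAC9 had 0.978 and 0 in H460 and 170.4 and 188 in H1703, against 271 and 302 in HCC827 and 51.9 and 46.7 in H441. In HDAC5 the responsive lines stood on either side of both non-responsive lines, in HDAC9 H1703 lay between HCC827 and H441, and neither gene was clearly separated. HDAC7 had 624 and 665 in H460 and 403 and 301 in H1703, against 879.8 and 708 in HCC827 and 832 and 904 in H441, with no overlap but a highest limma adjusted p of 0.0603. It was called lower without H1703 vehicle replicate 1 (0.0338), H1703 vehicle replicate 2 (0.0334) or HCC827 vehicle replicate 2 (0.0194), and also with limma voom on the recovered reads (0.0386), quantile normalization (0.0138) or the stricter filter (0.0453).

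Partners of these targets were separated in both directions. MEF2C, a transcription factor bound by class IIa deacetylases, had 889 and 822 normalised reads in H460 and 907 and 832 in H1703, against 161 and 164 in HCC827 and 177 and 191 in H441 (2.2996 ± 0.095). The 2 lines within each class were nearly level. MEF2A and MEF2D were not separated, and of 16 tested deacetylase and MEF2 genes the 2 higher ones were HDAC4 and MEF2C, with a list median of 0.05. Of 12 tested MYC network genes, MXD3 was higher (8.33%, near the share of all tested genes) and MXD1, MXD4, MNT and MLXIP were lower (33.3%). The list median was -0.52. MXD3, a MAX partner that represses MYC targets, had 1523 and 1321 in H460 and 1412 and 1479.7 in H1703, against 551 and 501 in HCC827 and 701 and 696 in H441 (1.24 ± 0.06). MXD1, another MAX partner, had 19.7 to 30.3 in the responsive libraries, against 150.3 and 176 in HCC827 and 116 and 126 in H441 (-2.37 ± 0.15). Neither overlapped between the classes, and they ran in opposite directions. The lower count of this list fell to 1 without H460 vehicle replicate 1 or HCC827 vehicle replicate 2, and to 2 without H460 vehicle replicate 2 or HCC827 vehicle replicate 1, where MXD1 stayed called.

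Genes for making ribosomes and respiratory chain subunits, processes that MYC is known to promote, are set beside all tested genes. Of all tested genes, 7.33% were higher and 8.18% lower. The shares were 40.0% higher and 3.33% lower for ribosome biogenesis and 28.9% and 0.0% for complexes II to V. Complex I lay nearer to all tested genes, with 13.5% higher and 5.41% lower. Of 30 ribosome biogenesis genes, 12 were higher and RRS1 was lower, with a median of 0.54. RRP12, a factor for ribosome export, had 1783 and 1795 normalised reads in H460 and 1912 and 1989.7 in H1703, against 639.9 and 566 in HCC827 and 571 and 636 in H441 (1.63 ± 0.07). DDX21, a nucleolar helicase, had 7069 and 7423 in H460 and 7045 and 7237 in H1703, against 3021 and 3009 in HCC827 and 2563 and 2555 in H441 (1.37 ± 0.06). The lines of a class were close together and the classes did not overlap for either gene. NOLC1, a nucleolar chaperone, had 5518 and 5707 in H460 and 5206 and 5124 in H1703, against 2881 and 2666 in HCC827 and 2409.7 and 2364 in H441 (1.06 ± 0.05). RRS1 left the lower group without H1703 vehicle replicate 2, where the counts were 11 higher and 0 lower. Of 38 genes of respiratory complexes II to V, 11 were higher and none lower, with a median of 0.52. ATP5F1C, a subunit of the ATP synthase stalk, had 1967 and 1944 in H460 and 2112 and 1863 in H1703, against 642 and 667 in HCC827 and 1159.6 and 1063 in H441 (1.21 ± 0.06). UQCRC2, a core protein of complex III, had 1536 and 1531 in H460 and 875 and 870.1 in H1703, against 602 and 526 in HCC827 and 529 and 532 in H441 (1.08 ± 0.07). Complex I had 5 higher and 2 lower genes of 37, with a median of 0.51, and its higher count fell to between 2 and 4 when H1703 vehicle replicate 1 or 2, H441 vehicle replicate 1 or 2, H460 vehicle replicate 2, or HCC827 vehicle replicate 1 or 2 was left out. Its lower count fell to 0 without H460 vehicle replicate 2 or HCC827 vehicle replicate 1. None of the 13 mitochondrially encoded mRNAs was separated. The mitophagy genes BNIP3L and PINK1 were lower. BNIP3L had 303 and 346 in H460 and 888 and 765 in H1703, against 3066 and 2649 in HCC827 and 2743 and 2644 in H441 (-2.42 ± 0.08).

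Among the 32 gene lists, NRF2 targets had the largest share of higher genes. Of 28 tested, 15 were higher (53.6%, beside 7.33% of all tested genes) and none lower, with a median of 1.47. NQO1, a quinone reductase and standard NRF2 target, had 14202 and 13397 normalised reads in H460 and 7517 and 7155 in H1703, against 1759.6 and 2102 in HCC827 and 4721 and 4589.9 in H441 (1.75 ± 0.06). PIR, an iron-binding nuclear protein, had 778 and 762 in H460 and 775 and 785 in H1703, against 69.1 and 79.9999 in HCC827 and 93.9 and 106 in H441 (3.13 ± 0.13). Each responsive library exceeded each non-responsive one for both genes, and the responsive lines were level in PIR. SLC7A11, the cystine importer that feeds glutathione synthesis, had 5953 and 5625 in H460 and 2061 and 2361 in H1703, against 217 and 185 in HCC827 and 1564 and 1447 in H441 (2.69 ± 0.06). FTL, the ferritin light chain, had 9361 and 9503 in H460 and 4884 and 4813 in H1703, against 704 and 663 in HCC827 and 1763 and 1551 in H441 (2.67 ± 0.05), with the caution that ferritin genes have many near-identical pseudogenes. NR0B1, an orphan nuclear receptor, had 663 and 664 in H460 and 55.5 and 42.04 in H1703 and 0 in the non-responsive libraries (at least 419-fold higher). The responsive lines were far apart in it, as they were in many detoxifying enzymes. HMOX1, the heme oxygenase, was led by H1703, with 252 and 137 in H460 and 2572 and 2675 in H1703, against 101 and 118 in HCC827 and 102 and 111 in H441. HMOX1 was not called with limma voom on the recovered reads (adjusted p 0.0773) or without the trend and robust settings (limma adjusted p 0.0594). Its call was lost without H460 vehicle replicate 1 (limma adjusted p 0.266), HCC827 vehicle replicate 1 (0.114) or H441 vehicle replicate 1 (0.074). AKR1B10, an aldo-keto reductase, was high in H460 alone, with 15380.4 and 15275 in H460 and 0 and 0.701 in H1703, against 29.1 and 55.7 in HCC827 and 7.73 and 15.2 in H441, and was not separated. ME1, the cytosolic malic enzyme, had 4257 and 4300.3 in H460 and 0 and 0 in H1703, against 562 and 532 in HCC827 and 1194 and 1316 in H441, so the 2 responsive lines were the highest and the lowest of the 4. AKR1C1 and AKR1C2 were among the 15, and as near-identical copies they share reads, so neither count is certain. With limma voom on the recovered reads, AKR1C2 was not called (adjusted p 0.0725). AKR1C2 also lost its call without H1703 vehicle replicate 1 (0.0978) or HCC827 vehicle replicate 1 (0.313).

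EGFR itself did not follow the classes. It had 1361 and 1382 normalised reads in H460 and 4783 and 4920.3 in H1703, against 136029 and 131564 in HCC827 and 3484 and 3372 in H441. HCC827 stood far above the rest, and H1703 lay above H441. Of 18 tested genes of this family, its ligands and its inhibitors, 5 were lower (ERBB3, TGFA, AREG, EREG and BTC) and SOCS5 was higher. The list median was -0.82, with 27.8% lower and 5.56% higher, beside 8.18% and 7.33% of all tested genes. The ligand genes HBEGF, EGF and EPGN were not clearly separated, with class differences of 0.41, 0.09 and 2.31. EREG, the ligand epiregulin, had 0 and 5.51 in H460 and 0 and 0 in H1703, against 2581 and 2348 in HCC827 and 3386 and 2962 in H441 (-10.34 ± 0.48). AREG, the ligand amphiregulin, had 0 to 5.51 in the responsive libraries, against 211 and 269 in HCC827 and 472 and 475 in H441 (-7.29 ± 0.41). TGFA had 0.787 to 7.71 in the responsive libraries, against 114 and 123 in HCC827 and 368 and 401 in H441 (-5.14 ± 0.23). The responsive libraries were near 0 for EREG, AREG and TGFA, with no overlap. ERBB3, the receptor that pairs with ERBB2, had 10.2 to 22.4 in the responsive libraries, against 324 and 383 in HCC827 and 1441 and 1514 in H441 (-5.404 ± 0.18). SOCS5 lost its call without H460 vehicle replicate 1 (limma adjusted p 0.0598) or HCC827 vehicle replicate 2 (0.0546).

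Of 30 other receptor kinases tested, FGFR1, FGFR2, TYRO3 and FLT4 were higher and MET, MST1R and EPHB2 were lower, with a median of -0.28. These were 13.3% higher and 10.0% lower, beside 7.33% and 8.18% of all tested genes. MET, the receptor of hepatocyte growth factor, had 1513 and 1570.05 normalised reads in H460 and 1553 and 1854 in H1703, against 10257 and 10353 in HCC827 and 24247 and 23869 in H441 (-3.28 ± 0.06). FGFR1, a fibroblast growth factor receptor, had 396 and 413 in H460 and 4658 and 4907 in H1703, against 215 and 205 in HCC827 and 3.31 and 4.34 in H441 (5.26 ± 0.095). H1703 stood far above H460 in FGFR1, and HCC827 far above H441. FLT4, the receptor VEGFR3, had 114 and 113 in H460 and 398 and 456 in H1703 and 0 in the non-responsive libraries (at least 338-fold higher). FGFR2 lost its call without H460 vehicle replicate 2 (limma adjusted p 0.154) or HCC827 vehicle replicate 1 (0.148), and TYRO3 without H1703 vehicle replicate 2 (0.066). Of 17 ERK output and feedback genes, SPRY4 was higher (5.88%) and SPRY1, SPRED2, FOSL1 and CCND1 were lower (23.5%). FOSL1, an AP-1 subunit induced by ERK signalling, had 188 and 168 in H460 and 401 and 467 in H1703, against 1912 and 1623 in HCC827 and 3029 and 2687 in H441 (-3.002 ± 0.09). CCND1, the cyclin D1 gene, had 2534 and 2690.2 in H460 and 1426 and 1615 in H1703, against 9365 and 9368 in HCC827 and 9051 and 9023 in H441 (-2.21 ± 0.05). Without HCC827 vehicle replicate 1 or 2, the lower count of that list was 2, FOSL1 and CCND1 included.

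Of 28 tested laminins, type IV collagens and integrins, 8 were lower and 2 higher, with a median of -0.14. The lower share was 28.6%, beside 8.18% of all tested genes, and the higher share of 7.14% was near their 7.33%. LAMA3, a laminin chain of epithelial basement membranes, had 111 and 107 normalised reads in H460 and 35.1 and 32.2 in H1703, against 3035 and 3063 in HCC827 and 2434 and 2138 in H441 (-5.37 ± 0.07). LAMB3, another such chain, had 123 and 114 in H460 and 4.87 and 2.802 in H1703, against 1064 and 937 in HCC827 and 3283 and 3135 in H441 (-6.03 ± 0.16). The non-responsive libraries were above the responsive ones for both chains. ITGB6, a chain of the epithelial TGF-beta activating integrin, had 0 in the responsive libraries, against 77.04 to 128 in the non-responsive ones (at least 158-fold lower). LAMA1, a chain of the embryonic laminin-111, was higher, with 3227 and 3304 in H460 and 72.1 and 42.7 in H1703, against 1 read over the non-responsive libraries.

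Of 19 tested neuronal and neuroendocrine genes, 7 were higher (36.8%) and 3 lower (15.8%), with a median of 2.93 (4.81 with bounds). Besides UCHL1, MAP2, a microtubule protein of dendrites, had 1566 and 1281 normalised reads in H460 and 1664 and 1503 in H1703, against 12.1 and 27.3 in HCC827 and 108 and 148 in H441 (4.85 ± 0.198). L1CAM, a neural adhesion molecule, had 1288 and 1411 in H460 and 125 and 75.7 in H1703, against 23.03 and 24.3 in HCC827 and 0 and 0 in H441 (5.92 ± 0.21). CADM1, a synaptic and epithelial adhesion molecule, ran the other way, with 15.7 to 30.1 in the responsive libraries, against 1434 and 1501 in HCC827 and 899 and 991 in H441 (-5.78 ± 0.35). A filter requiring a mean 3 above the lowest value reduced the 7 higher genes to 4. Of 32 interferon-stimulated genes, 6 were lower (18.75%, beside 8.18% of all tested genes) and none higher, with a median of -0.63. BST2, the antiviral protein tetherin, had 0 to 3.91 in the responsive libraries, against 55.7 and 88.1 in HCC827 and 221 and 260.4 in H441 (-5.76 ± 0.27). STAT2, the transducer of type I interferon signals, had 112 to 135 in the responsive libraries, against 399.9 and 420.3 in HCC827 and 198 and 206 in H441 (-1.25 ± 0.09). Both were low in every responsive library. Of 26 MHC class I and checkpoint genes, TAP1 was higher and TAP2, CD274, CD47 and VTCN1 were lower. These were 3.85% higher and 15.4% lower, beside 7.33% and 8.18% of all tested genes. CD47, the signal that keeps macrophages from engulfing a cell, had 398 to 466 in the responsive libraries, against 1111 to 1283 in the non-responsive ones (-1.49 ± 0.08). TAP1, a subunit of the peptide transporter, had 161 and 169.9 in H460 and 684 and 597 in H1703, against 52.1 and 47.6 in HCC827 and 38.7 and 35.8 in H441 (2.84 ± 0.12). With limma voom on the recovered reads, CD274 was not called (adjusted p 0.231). CD274 lost its call without H460 vehicle replicate 1 (limma adjusted p 0.0935) or HCC827 vehicle replicate 1 (0.065). VTCN1 lost it without either vehicle library of H1703 or H460 (0.0502 to 0.0534) or without HCC827 vehicle replicate 2 (0.224).

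**Figure D3:**
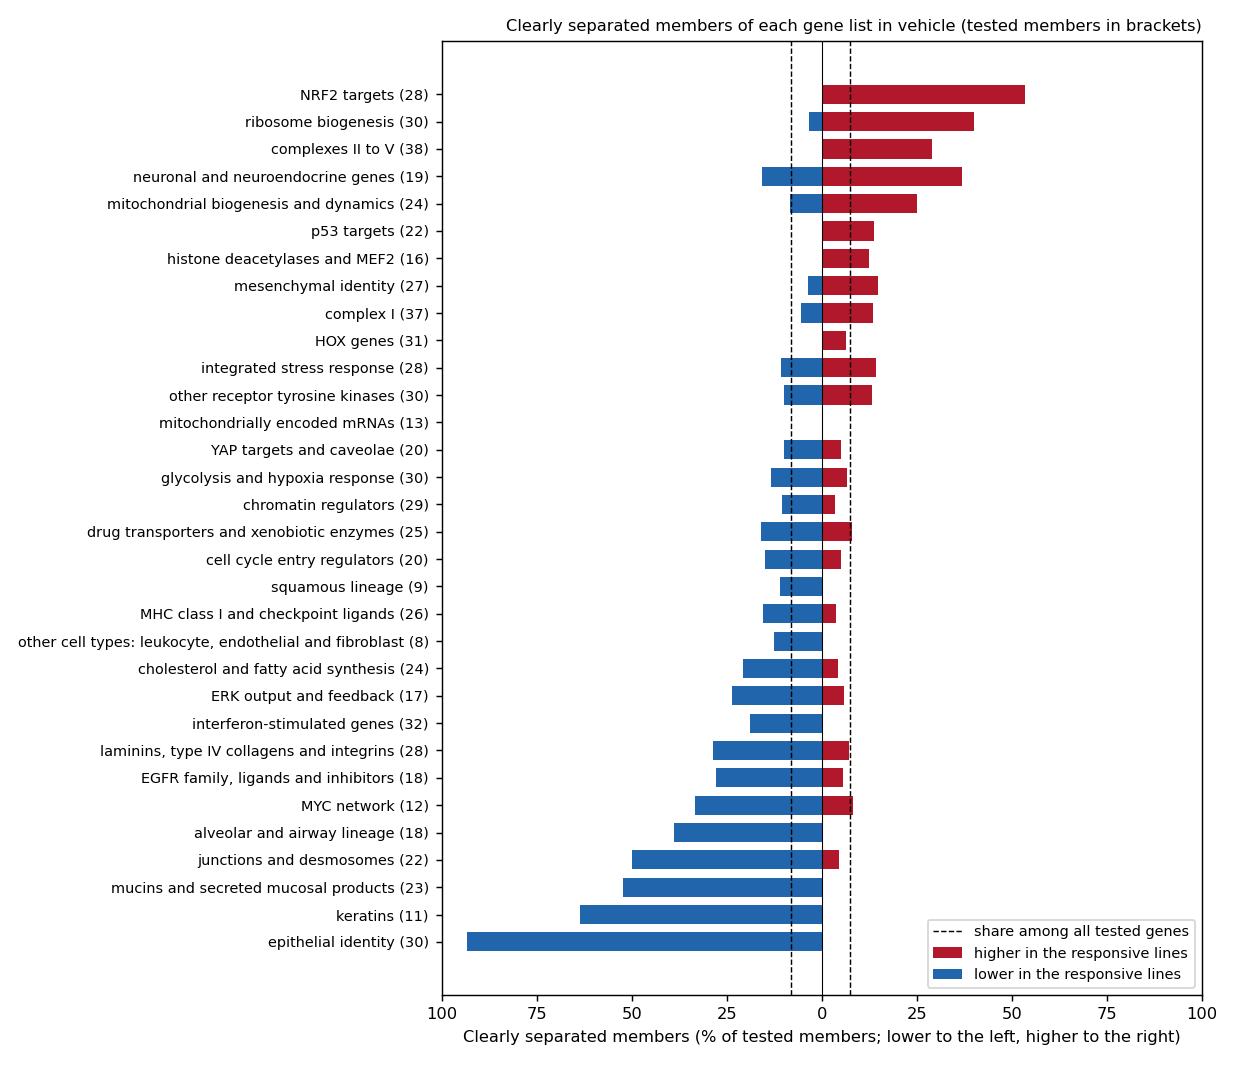
Percent of the tested members of each of the 32 gene lists that were clearly separated in vehicle, higher in the responsive lines to the right (red) and lower to the left (blue), with the number tested in brackets and the shares among all tested genes as dashed lines (7.33% higher, 8.18% lower). Epithelial identity reaches furthest to the left, with 28 of 30 lower, and NRF2 targets furthest to the right, with 15 of 28 higher.

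Clearly separated genes were spread unevenly over the chromosomes. On chromosome 10, 19.1% of tested genes were higher and 4.06% lower, while on chromosome 11, 1.69% were higher and 18.4% lower. Chromosomes 5 (14.1%), 18 (13.1%), 2 (13.0%) and 15 (12.6%) followed for higher genes, and chromosomes 8 (13.6%) and 14 (12.7%) for lower genes. Runs of at least 4 neighbouring tested genes separated in one direction numbered 21 for higher and 41 for lower genes. The longest held 9 lower genes at chr17:35243036-35448837, from SLFN5 to SLFN13, in the cluster of Schlafen genes, which act on transfer RNA and replication stress. Only SLFN5, SLFN11, SLFN12 and SLFN13 of the run are named protein-coding genes, and SLFN11 had a gap of -0.48. The others are unnamed long RNAs and pseudogenes within the cluster. SLFN12 in that run had 1.96 and 0 normalised reads in H460 and 0 and 0.701 in H1703, against 329.6 and 309 in HCC827 and 231 and 295 in H441, a ratio of non-responsive to responsive lines of 460.02 with a counting interval of 157 to 2234. SLFN5 had 215 and 271 in H460 and 199.7 and 154 in H1703, against 1309 and 1387 in HCC827 and 5034 and 5055 in H441 (-3.65 ± 0.08). SLFN11 was not called with median centring (limma adjusted p 0.176) or without the trend and robust settings (0.0929). SLFN13 lost its call without H460 vehicle replicate 1 (limma adjusted p 0.153) and SLFN11 without H1703 vehicle replicate 2 (0.204), H460 vehicle replicate 1 (0.103) or HCC827 vehicle replicate 1 (0.161). A run of 7 lower genes at chr14:36298558-36656163 held MBIP, SFTA3, NKX2-1, its antisense partner NKX2-1-AS1 and NKX2-8. NKX2-8 lost its call without H1703 vehicle replicate 1 (limma adjusted p 0.184) or H441 vehicle replicate 2 (0.064). A run of 5 lower genes at chr12:14914035-15882329 held ERP27, an endoplasmic reticulum chaperone, and ARHGDIB, a regulator of small GTPases. ERP27 had 0 reads in the responsive lines, against 184 and 185 in HCC827 and 201 and 206 in H441 (at least 307-fold lower). ARHGDIB had 0.978 and 2.36 in H460 and 0 and 0 in H1703, against 825 and 822 in HCC827 and 2969.6 and 3127 in H441 (-9.42 ± 0.21). Neighbouring genes can share reads or regulation, and copy number was not measured.

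**Figure D4:**
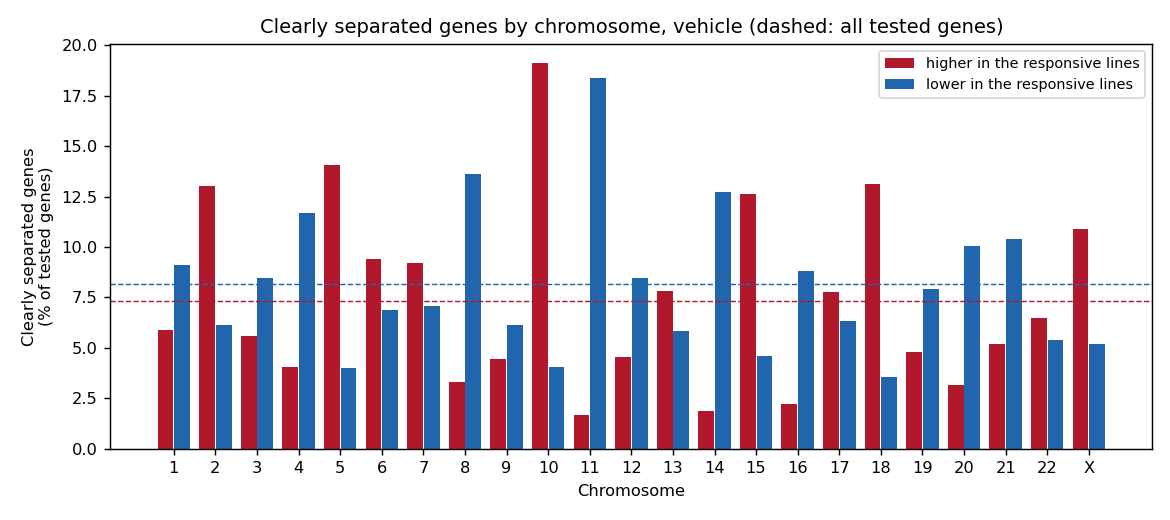
Percent of the tested genes of each chromosome that were clearly separated in vehicle, higher (red) or lower (blue) in the responsive lines, with the shares over all tested genes as dashed lines (7.33% and 8.18%). Chromosome 10 has the tallest red bar (19.1%) and chromosome 11 the tallest blue bar (18.4%).

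The same lines treated with the combination gave a second set of 8 libraries, which share no library with the vehicle set. There, 1721 genes were higher (7.18%) and 2052 lower (8.56%) in the responsive lines. Of the 1757 genes higher in vehicle, 1017 (57.9%) were also higher with the combination, which is 59.1% of those higher with the combination. Of the 1960 genes lower in vehicle, 1229 (62.7%) were also lower with the combination, which is 59.9% of those lower there. The lines are the same in both sets, so this overlap describes these lines and adds no new line. Genes far apart in vehicle stayed apart, with 201 of 205 higher (98.0%) and 311 of 324 lower genes (95.99%) among those with a gap of at least 3. With a gap under 1, 430 of 994 higher genes (43.3%) and 420 of 802 lower genes (52.4%) were separated the same way. In the epithelial list, 27 of 30 genes were lower with the combination, and KLF5 was no longer separated (-1.11 ± 0.101, against -2.42 ± 0.101 in vehicle). NRF2 targets had 8 higher genes with the combination, against 15 in vehicle, but the median class difference of the list was 1.47 in both sets. Within that list, SLC7A11 had a class difference of 0.98 ± 0.06 with the combination and 2.69 ± 0.06 in vehicle. Ribosome biogenesis had 4 higher and 3 lower genes with the combination, against 12 and 1 in vehicle, and complexes II to V had 3 higher genes, against 11. HDAC4 and MEF2C were higher in both sets, at 1.505 ± 0.09 and 1.27 ± 0.095 with the combination. The counts per list were not tested for a difference between the sets.

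**Figure D5:**
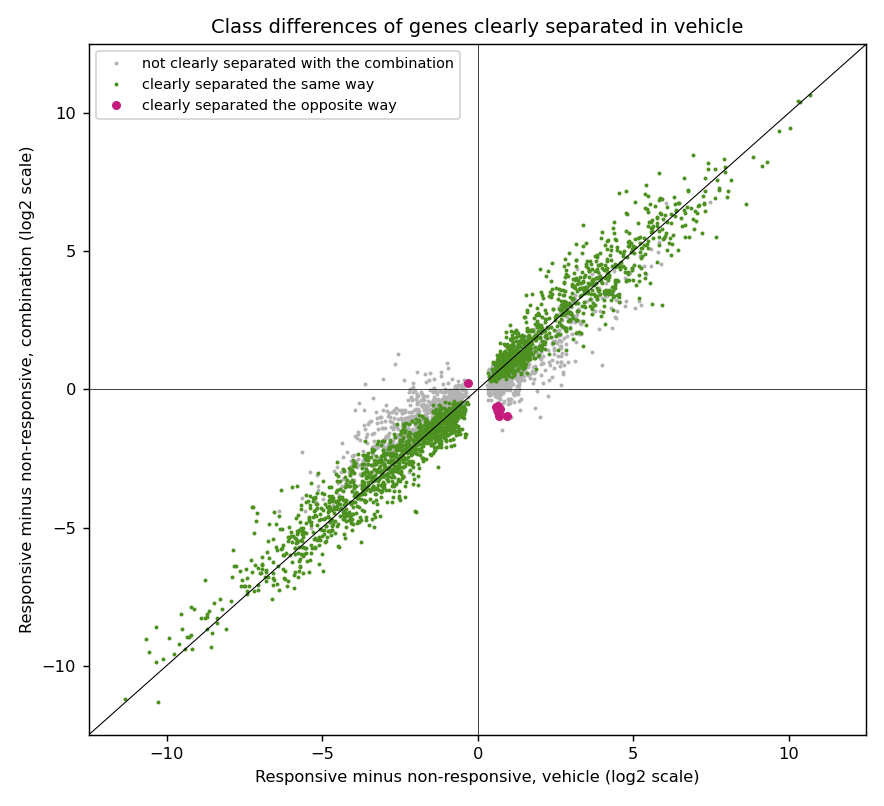
Class difference (responsive minus non-responsive lines, deposited log2 scale) with the combination against that in vehicle, 1 point per gene clearly separated in vehicle, with genes of chromosome Y not plotted. Points far from 0 in vehicle lie near the diagonal line of equal values and are clearly separated with the combination too (green), most grey points are near 0 in vehicle, and the 8 genes separated the opposite way are shown in magenta.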

How the data were processed

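RNA was measured in 16 libraries of 4 established lung cancer lines, 2 per line and treatment. Per the labels' protocols, RNA came from NucleoSpin columns and a stranded SMARTer kit for total RNA was used for library construction. The submitters' processing notes name Trimmomatic, STAR, featureCounts and hg38 (GRCh38). Tool versions and the strand setting of the counting are not given in the sources used here. Values in the deposited table are the authors' variance-stabilised counts on a log2 scale for 28951 genes, which understate the change of low genes. The single agents were not analysed here.

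The transformation was inverted to recover reads, and 100% of values came out whole to within 0.02. The floor for a class at 0 is 3 reads over its 4 libraries, and intervals (95%) and floors cover counting error only. Bounds leave out the counting error of the class that had reads. GENCODE 29 held 28846 of the gene IDs and gave positions and gene types. Symbols came from a separate list of gene names, which gave 22755 IDs a symbol. Genes with a mean at least 1 above the lowest value (0.480538) over all 16 libraries were tested (23968, with 4983 removed). The 8 group means were fitted in limma 3.58.1 (R 4.3.3, trend and robust), which gave the 4 line-pair differences, adjusted by Benjamini and Hochberg over all tested genes with a threshold of 0.05. Standard errors are from this fit, with 8 residual degrees of freedom, and measure the spread between libraries, not between lines. Python 3.11.15 with pandas 2.3.3, numpy 2.4.6 and, for figures, matplotlib 3.10.9 handled the tables. The fit was tested on simulated data.

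The comparison, the 32 gene lists and the tests were chosen with earlier results of these data known. Genes were named by a rule: the 15 widest gaps per direction, up to 5 separated members of each list with the widest gaps, and MYC, MAX, the class IIa deacetylases, CDH1, EPCAM, VIM, ZEB1, EGFR and NKX2-1. Others, such as CRB3, AP1M2, RAB25, GRHL2, OVOL1, OVOL2, ELF3, ESRP2, KLF5, MYO5B, PATJ, KRT8, KRT18, KRT19, CLDN1, NQO1, SLC7A11, FTL, HMOX1, RRS1, AKR1B10, AKR1C2, ME1, PFKP, FGFR1, TYRO3, SOCS5, L1CAM, the SLFN genes, MBIP, NKX2-8, ERP27, ARHGDIB, MEF2A and MEF2D, were chosen after their values were seen. Genes of chromosome Y and XIST are counted but not named, and results for some other genes are not reported here. Alternatives were other filters, limma voom on recovered reads, median centring, quantile normalization, no trend or robust setting, vehicle libraries alone, a replicate block and leaving out each library.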

Additional observations from a re-analysis of the deposited data

Results flagged for a closer look

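The class difference of 8 genes was clearly separated in one direction in vehicle and in the other with the combination. They were chosen for these opposite calls, so the change in class difference (combination minus vehicle) is given for them with its standard error, as a description with no test. HELLS, a chromatin remodeller of replicating cells, changed by -1.65 ± 0.08, with a class difference of -0.95 with the combination and 0.702 in vehicle. TYMS, thymidylate synthase, changed by -1.92 ± 0.10 (-0.97 and 0.95), KIF20B by -1.51 ± 0.11 (-0.83 and 0.67), RFC2 by -1.48 ± 0.11 (-0.83 and 0.65) and ATAD5 by -1.42 ± 0.10 (-0.71 and 0.72), each with the combination value first. PRPS1 changed by -1.26 ± 0.09 (-0.59 with the combination and 0.67 in vehicle) and EME1 by -1.25 ± 0.11 (-0.65 and 0.595). TRIP11 ran the other way, at 0.54 ± 0.07 (0.23 and -0.32). In vehicle, TYMS had 1889 and 1677 normalised reads in H460 and 3303 and 3406 in H1703, against 1522 and 1393 in HCC827 and 1149.6 and 1036 in H441, with no overlap.

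The vehicle calls of 3 of these genes depended on the processing and on single libraries. Without the trend and robust settings, KIF20B (limma adjusted p 0.0842), TYMS (0.0866) and TRIP11 (0.0842) were not called. TYMS was also not called with quantile normalization (limma adjusted p 0.0845), nor TRIP11 with median centring (0.849). KIF20B was no longer called without H1703 vehicle replicate 2 (limma adjusted p 0.0958) or HCC827 vehicle replicate 2 (0.152), and TYMS without H460 vehicle replicate 1 (0.19) or HCC827 vehicle replicate 2 (0.151). TRIP11 was not called without H1703 vehicle replicate 1 (0.113), H460 vehicle replicate 1 (0.0671), HCC827 vehicle replicate 1 (0.0671) or HCC827 vehicle replicate 2 (0.0536).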

How the results depend on the processing

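The numbers of clearly separated genes stayed within 1.5 times of 1757 higher and 1960 lower under each setting. They were 2030 and 1634 with median centring, which shifted class differences by 0.0852, and 1755 and 2041 with limma voom. Leaving out 1 library gave 1498 to 1813 higher and 1699 to 2042 lower genes. The class mean difference then called 6334 to 6986 higher and 6122 to 6712 lower, the combination 1495 to 1740 higher and 1823 to 2061 lower, and line means lay apart for 4801 to 5019 higher and 5105 to 5278 lower genes. The fit over lines stayed at 0. The looser count of genes with line means apart moved most: 3318 lower with a mean at least 3 above the lowest value, 2854 higher and 3146 lower with all 4 libraries apart, and 959 higher and 1368 lower with a gap of at least 1.

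Same-numbered libraries did not deviate together (r of -0.039 to 0.125 over the 28 pairs of groups), so the numbers do not pair libraries. With the replicate number as a block, 1757 genes were higher and 1956 lower, of which 1734 and 1937 were also called without the block.

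Of 203 named and called genes, 157 kept the call in all 24 settings, 46 lost it in at least 1, none reversed, and 2 uncalled genes gained one (HDAC7 and LAMA5). Of 128 recomputed list medians, 30 moved by more than the SD between libraries of a line, by at most 1.63 (log2), and 5 changed sign. Low depth limits genes of a few reads, and 2 lines per class limit every comparison.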

Other observations

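Metabolic lists were mixed, and of all tested genes 7.33% were higher and 8.18% lower. The shares were 6.67% higher and 13.3% lower for glycolysis and hypoxia and 4.17% and 20.8% for cholesterol and fatty acid genes. The integrated stress response had 14.3% higher and 10.7% lower. Of 30 glycolysis and hypoxia genes, 2 were higher (SLC2A3 and PFKP) and 4 lower (PFKFB4, ENO2, VEGFA and NDRG1), with a median class difference of -0.46. SLC2A3, the high-affinity glucose transporter GLUT3, had 1361 and 2091 normalised reads in H460 and 728 and 679 in H1703, against 64.2 and 85.1 in HCC827 and 11.04 and 13.02 in H441 (5.03 ± 0.24). NDRG1, a hypoxia-induced gene, had 116 to 199 in the responsive libraries, against 756 and 611 in HCC827 and 2107 and 1859.8 in H441 (-2.99 ± 0.12). The higher count was 1 without H1703 vehicle replicate 1 or H441 vehicle replicate 2. Of 24 cholesterol and fatty acid genes, 5 were lower and IDI1 was higher, with a median of -0.35, and the higher count was 0 without H441 vehicle replicate 1. Of 28 integrated stress response genes, 4 were higher and 3 lower. PHGDH, the entry enzyme of serine synthesis, was at 0 in H441 alone, with 520.4 and 557 in H460 and 1249 and 1134 in H1703, against 276 and 278 in HCC827.

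The remaining lists had few separated genes. Of 22 p53 targets, 3 were higher (BTG2, SESN1 and XPC) and none lower, with BTG2 lost without H1703 vehicle replicate 2 (limma adjusted p 0.0502) or HCC827 vehicle replicate 1 (0.0561). Of 31 HOX genes, HOXD13 and HOXB13 were higher and none lower, with a list median of 1.76, and the count was 1 without H1703 vehicle replicate 1, H460 vehicle replicate 2 or HCC827 vehicle replicate 1 and 0 with the stricter filter. HOXD13 had 14.6 to 25.4 normalised reads in the responsive libraries and 0 in the others (at least 24.3-fold higher). Mitochondrial biogenesis and dynamics had 6 higher and 2 lower genes of 24, and xenobiotic enzymes 2 and 4 of 25, with 2 lower genes without H441 vehicle replicate 2 or H460 vehicle replicate 2. Cell cycle entry regulators had 1 higher and 3 lower of 20, with 0 higher without either vehicle library of H460 or without H441 vehicle replicate 2. YAP targets had 1 and 2 of 20, a count that moved under 9 of the settings, and chromatin regulators 1 and 3 of 29, with 0 higher without any one vehicle library of H460, H1703 or HCC827. ARID2, the higher chromatin gene, had 0 reads in H441, against 917 and 939 in HCC827. Of 8 tested markers of leukocytes, endothelium and fibroblasts, LUM was lower and none was higher. LUM lost its call without any one vehicle library of H460 or H1703 (limma adjusted p 0.0691 to 0.0754), without HCC827 vehicle replicate 2 (0.110), with median centring (0.0503) and with quantile normalization (0.0563).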
